A study of Drosophila melanogaster with 2 samples.

Results

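The genes described here encode the protein complexes of mitochondrial oxidative phosphorylation in Drosophila melanogaster, and the measurement is where Atonal-eGFP sat near their transcription starts. They were taken by symbol from the dm6 annotation: protein-coding genes on the main chromosome arms whose symbol starts with ND- (complex I), Sdh (complex II), UQCR- (complex III), COX and a number (complex IV) or ATPsyn (complex V, the ATP synthase). This gave 88 of 13945 protein-coding genes, 40 in complex I, 8 in complex II, 9 in complex III, 16 in complex IV and 15 in complex V. Chromatin immunoprecipitation with sequencing (ChIP-seq) was done on whole embryos aged 0 to 18 h from flies that carried ato fused to enhanced GFP, with an antibody against GFP. Fragments of 200 to 800 bp were made by sonication. The series holds 1 group, the ato-eGFP embryos, in 2 biological replicates, and has no other condition. A control was not analysed here, and whole embryos mix many cell types, so no peak can be placed in a cell type. The deposited lists give a position and a signal for each peak and no read counts, so the depth is unknown.

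Atonal is a proneural basic helix-loop-helix factor of sense organ precursors, and such factors bind E-boxes, CANNTG, with a partner such as Daughterless. Oxidative phosphorylation passes electrons from NADH through complex I, or from succinate through complex II, to complexes III and IV, and the ATP synthase uses the resulting proton gradient to make ATP. Nearly all cells need these genes. Most subunits are encoded in the nucleus, and in fly several of them have a duplicate, with an L added to the symbol, and many such duplicates are known for expression in the testis. Housekeeping promoters in fly often carry the DNA replication-related element (DRE), TATCGATA, bound by Dref, and the shorter word CGATA, known for binding of the insulator protein BEAF-32.

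Of the 8 strongest member summits, 6 are shown first because they show which words lie under the signal. Each is 41 bases of dm6 centred on the summit, read on the strand of the named gene, and capitals mark CGATA or its reverse complement TATCG. The 6 windows lie at chrX:2172467-2172507 (plus strand, ND-B14.5A), chr3R:8341021-8341061 (minus, COX7A), chrX:16286284-16286324 (plus, UQCR-14), chr3R:23356062-23356102 (minus, ATPsynCF6), chrX:19744376-19744416 (minus, COX6B) and chr2L:4454458-4454498 (plus, ND-B8).
ND-B14.5A: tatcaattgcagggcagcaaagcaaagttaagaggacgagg
COX7A: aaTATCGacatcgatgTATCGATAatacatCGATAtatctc
UQCR-14: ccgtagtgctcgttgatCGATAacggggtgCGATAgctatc
ATPsynCF6: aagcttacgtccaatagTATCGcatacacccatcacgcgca
COX6B: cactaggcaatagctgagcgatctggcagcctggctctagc
ND-B8: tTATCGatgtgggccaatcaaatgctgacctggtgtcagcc
COX7A held 4 copies of the word, UQCR-14 held 2, ATPsynCF6 and ND-B8 held 1 each, and the windows of ND-B14.5A and COX6B held none. A DRE counts as 2 copies, since it reads CGATA on both strands.

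Starts of 3 of the strongest genes that have an L duplicate are shown beside the start of that duplicate, because the duplicates turned out to lack peaks. Each is 120 bases of dm6 on the strand of the gene, 100 before the most upstream start and 20 from it on, with the same letters in capitals. The windows lie at chr3L:22606269-22606388 (plus strand, ND-B14.5AL), chrX:2172426-2172545 (plus, ND-B14.5A), chr3R:8343569-8343688 (plus, COX7AL), chr3R:8341024-8341143 (minus, COX7A), chr3L:5012114-5012233 (minus, ATPsynCF6L) and chr3R:23356045-23356164 (minus, ATPsynCF6).
ND-B14.5AL: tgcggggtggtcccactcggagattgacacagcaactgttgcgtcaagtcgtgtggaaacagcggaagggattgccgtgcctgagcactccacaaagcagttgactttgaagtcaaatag
ND-B14.5A: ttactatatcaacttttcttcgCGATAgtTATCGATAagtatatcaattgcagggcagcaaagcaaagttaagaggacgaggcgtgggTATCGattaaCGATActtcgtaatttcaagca
COX7AL: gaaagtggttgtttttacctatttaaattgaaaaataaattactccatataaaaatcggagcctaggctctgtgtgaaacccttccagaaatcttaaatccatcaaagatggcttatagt
COX7A: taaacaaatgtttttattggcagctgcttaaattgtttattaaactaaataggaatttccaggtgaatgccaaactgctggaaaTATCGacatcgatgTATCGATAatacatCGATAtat
ATPsynCF6L: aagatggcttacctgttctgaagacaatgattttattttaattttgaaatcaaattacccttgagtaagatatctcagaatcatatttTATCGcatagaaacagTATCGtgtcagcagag
ATPsynCF6: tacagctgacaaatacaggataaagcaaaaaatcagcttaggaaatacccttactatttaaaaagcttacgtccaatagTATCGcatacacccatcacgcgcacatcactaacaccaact
The word was absent from the windows of ND-B14.5AL and COX7AL, against 5 copies at ND-B14.5A and 4 at COX7A. At the ATP synthase pair the order was the other way, with 2 copies at ATPsynCF6L and 1 at ATPsynCF6.

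A peak was counted for a gene when its summit lay within 500 bp of any annotated start of that gene. The main list was the conservative one, thresholded by the irreproducible discovery rate (IDR), a measure of how well peak ranks repeat between replicates, and it holds 3009 peaks. Of the 88 members, 22 (25%) had such a peak, against 21.8% of all protein-coding genes (3034 of 13945). In the other thresholded list made from both replicates, called pooled here, the share was 28.4% of members, against 23.0% of all genes. In replicate 1's own list it was 23.9% of members, against 18.5% of all genes, and in replicate 2's own list 14.8% of members (13 of 88), against 14.1% of all genes. In all 4 lists the members were near the background. Peaks were present in each of the 5 complexes, at 11 of 40 genes of complex I (27.5%), 1 of 8 of complex II (12.5%), 2 of 9 of complex III (22.2%), 4 of 16 of complex IV (25%) and 4 of 15 of complex V (26.7%). In replicate 2's list alone complex I had 5 and complex II 0, and with each peak given to the nearest coding start only, complex III had 1 and complex IV 1. With so few genes in a complex these shares were not ranked.

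The same genes were compared by the strongest row of the ranked list within 500 bp of a start, whether or not it passed the threshold, with genes that had no such row set to 0. This signal is as deposited by the authors, on a scale that the sources used here do not give, and serves to order and describe peaks within a list. Its median was 42.1 over the 88 members and 32.1 over all protein-coding genes. The members lay above that all-gene median in 57 cases and below it in 31. Where another coding gene's start lay within 500 bp of a gene's own, the median was 50.8 for members and 48.7 for all genes. Where none did, it was 28.7 for members and 27.5 for all genes. Within each class the members were thus near the background. In replicate 1's ranked list the median was 23.1 for members and 17.5 for all genes, and in replicate 2's 21.5 for members and 18.0 for all genes. A signal above 200 was reached by 6 members (6.82%), and by 372 of all genes (2.67%).

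**Figure D1:**
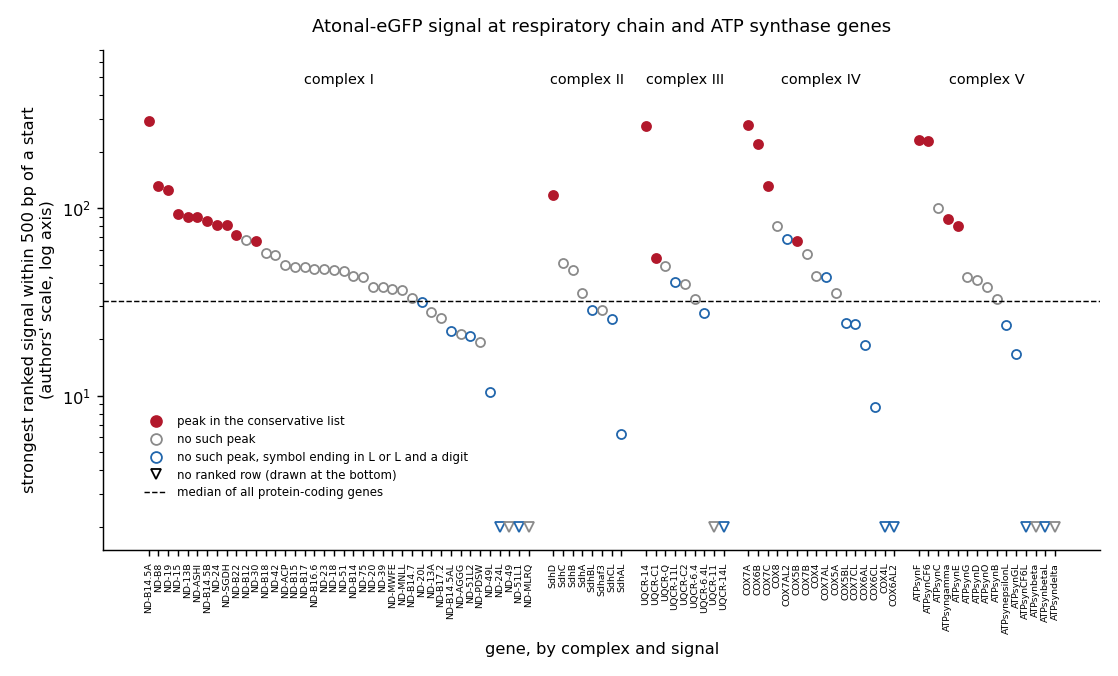
Strongest ranked signal within 500 bp of a start for each of the 88 genes (log axis, authors' scale), by complex; filled points have a peak in the conservative list, triangles have no ranked row, and the dashed line is the all-gene median of 32.1. ND-15 is drawn at its strongest row, 93.0, while its conservative peak is another row with a signal of 58.6. The 6 points above 200 are spread over complexes I, III, IV and V.

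Complex I, the NADH dehydrogenase, had its peaks at 2 of 7 core subunit genes (28.6%) and at 9 of 27 accessory subunit genes (33.3%). The share over all genes was 21.8%. The L duplicates of complex I, none with a peak, are in neither class, and leaving them out could only raise the shares of the classes. The core class includes the subunits that carry the redox centres. The strongest was at ND-B14.5A (NDUFA7 in human), where replicate 1's list gave 161.2 and replicate 2's 131.8, and the combined signal of the peak at chrX:2172379-2172585 was 293.9, rank 87 of 3009. ND-B8 (NDUFA2) had 77.7 and 57.1 in replicates 1 and 2 and 131.5 combined at chr2L:4454310-4454645. ND-19 (NDUFA8) had 69.9 and 59.1 and 125.2 combined at chr2R:24664234-24664569. These 3 stood above the rest of the complex, whose conservative peaks had combined signals of 58.6 to 90.2.

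Between those bounds, ND-13B (NDUFA5) had 46.8 in replicate 1 and 43.7 in replicate 2, and 90.2 combined at chr3L:10693956-10694291. ND-ASHI (NDUFB8), an accessory subunit of the membrane arm, had 55.0 and 36.8 and 90.1 combined at chrX:6678035-6678370. ND-B14.5B (NDUFC2) had 38.8 and 44.7 and 85.9 combined at chr2L:3145578-3145913. All 3 had a peak in replicate 1's thresholded list, and ND-B14.5B in replicate 2's as well. ND-24, the core subunit known in human as NDUFV2, had 42.2 and 42.7 and 81.2 combined at chrX:17631968-17632303. ND-SGDH (NDUFB5) had 35.3 and 41.1, with combined peaks of 80.9 at chr3L:12138420-12138504 and 78.0 at chr3L:12138597-12138932. Both genes' replicate values were close to each other.

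The weakest of complex I were ND-B22, ND-30 and ND-15. ND-B22 (NDUFB9) had 42.3 in replicate 1 and 32.8 in replicate 2, and 71.7 combined at chr2L:13370885-13371220. ND-30 (NDUFS3), a core subunit, had 31.7 and 33.2 and 66.8 combined at chr3L:3159390-3159725. ND-15 (NDUFS5) has starts far apart. Its conservative peak, 58.6 at chr2L:114425-114760, lay at one of them, and its strongest ranked row, 93.0, lay at another and had an IDR of 0.0889, so it missed the threshold of 0.01. Neither ND-30 nor ND-15 had a peak in a replicate's own thresholded list.

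Complex II, succinate dehydrogenase, had 1 peak, at SdhD, which encodes a membrane anchor of the complex. Replicate 1's list gave 82.3 and replicate 2's 39.3, with 117.5 combined at chr3R:23760455-23760790. It was the only one of the 22 genes whose replicate values differed by more than a factor of 2, at a ratio of 2.10. The catalytic subunit genes SdhA and SdhB had no conservative peak. SdhA had 15.7 in replicate 1, 21.9 in replicate 2 and 35.1 combined, and SdhB had 16.9, 32.5 and 47.1 in the same order.

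Complex III, which takes electrons from ubiquinol to cytochrome c, had peaks at UQCR-14 and UQCR-C1. UQCR-14 (UQCRB in human) had 150.3 in replicate 1 and 130.9 in replicate 2, and 275.5 combined at chrX:16286207-16286380. UQCR-C1, core protein 1, had 27.6 and 30.4. Its combined peaks were 54.4 at chr3R:14889843-14890178 and 8.77 at chr3R:14890045-14890380. The gap between the genes was wider than between the replicates of either, and UQCR-C1 was in neither single-replicate thresholded list nor in the pooled one.

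Complex IV, cytochrome c oxidase, had peaks at COX7A, COX6B, COX7C and COX5B, all small nuclear-encoded subunits around the catalytic core. COX7A had 161.1 in replicate 1 and 113.6 in replicate 2, and 278.5 combined at chr3R:8340953-8341130. COX6B had the widest excess of replicate 2 among the 22 genes, at 78.0 in replicate 1 and 144.4 in replicate 2, and 220.3 combined at chrX:19744292-19744458. COX7C had 75.6 and 65.8 and 131.8 combined at chr2R:10048487-10048822. COX5B had 44.2 and 29.6 and 67.0 combined at chr2L:6557325-6557660, and was in neither single-replicate list. The complex thus held both strong and weak peaks.

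Complex V, the ATP synthase, had peaks at ATPsynF, ATPsynCF6, ATPsyngamma and ATPsynE. ATPsynF, subunit f, had 126.9 in replicate 1 and 108.6 in replicate 2, and 231.4 combined at chr2R:24599810-24599963. ATPsynCF6, coupling factor 6 of the peripheral stalk, had 105.6 and 123.2 and 228.5 combined at chr3R:23356002-23356161. The genes of the rotor stalk and subunit e were weaker. ATPsyngamma, the central stalk, had 40.6 and 58.2 and 87.6 combined at chr3R:29749083-29749418, and ATPsynE, subunit e, had 41.6 and 43.6 and 80.8 combined at chr3R:14326905-14327240.

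Over the 22 genes the ratio of replicate 1 to replicate 2 ranged from 0.54 to 2.10 with a median of 1.11, and the median over all genes with a conservative peak was 1.08. Of the 69 members with a row in both replicates' ranked lists, 11 had values more than a factor of 2 apart, and 1 of these had a conservative peak. In the thresholded lists of the single replicates, 12 of the 22 (54.5%) were in both, against 53.7% of all genes with a conservative peak. The 4 in neither were ND-15, ND-30, UQCR-C1 and COX5B, the 4 with the lowest combined peaks among the 22.

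**Figure D2:**
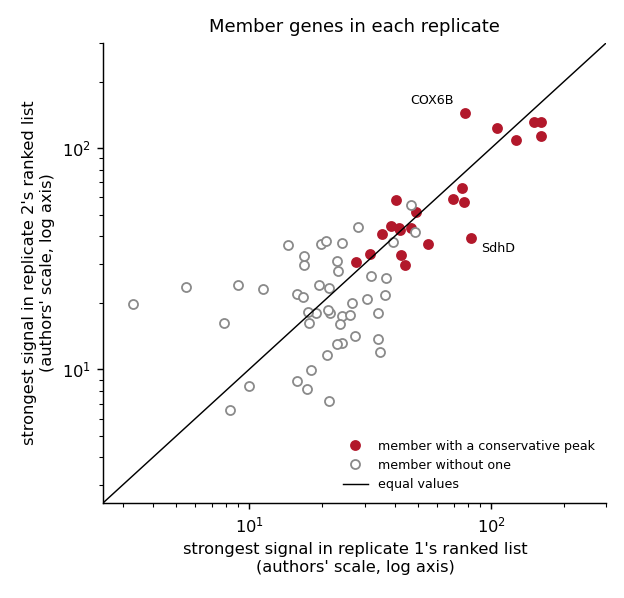
Strongest signal within 500 bp of a start in replicate 2's ranked list against that in replicate 1's, on log axes, for the 69 members with a row in both; filled points have a conservative peak and the line marks equal values. The filled points lie close to the line apart from SdhD and COX6B, with ratios of replicate 1 to replicate 2 of 2.10 and 0.54.

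Among the 66 members without a conservative peak, several came close. ATPsynC, the subunit of the c-ring that turns in the membrane, had 48.3 in replicate 1, 42.0 in replicate 2 and 100.1 combined, with an IDR of 0.0011. COX7AL2 had 39.3, 37.9 and 68.9 with an IDR of 0.0021. Both rows passed the threshold of 0.01 and are nevertheless not in the conservative list. ATPsynC and COX7AL2 are named for values already seen, as are the genes in the rest of this paragraph. ATPsynbeta, the catalytic subunit on chromosome 4, had no row in the combined ranked list within 500 bp, and a peak of 71.3 in replicate 1's list alone. COX8 and ND-B12 had peaks in replicate 1's list and in the pooled list, ND-B18, ND-42 and ND-B17 in the pooled list alone, and COX7B in replicate 2's list alone. In all, 29 members had a peak in at least 1 of the 4 thresholded lists. The same count was not made over all genes. Being taken over 4 lists, the 29 cannot be set against the all-gene share of any single list.

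The strongest member without a conservative peak was ND-B12 in complex I (67.3), SdhC in complex II (50.8), UQCR-Q in complex III (49.1), COX8 in complex IV (80.5) and ATPsynC in complex V (100.1). At the lower end, 12 members had no ranked row within 500 bp of a start. A row was present at 86.4% of members, against 89.8% of all protein-coding genes, so the members were near the background. The 12 were ND-49, ND-24L, ND-51L1 and ND-MLRQ in complex I, UQCR-11 and UQCR-14L in complex III, COX4L and COX6AL2 in complex IV, and ATPsynbeta, ATPsynbetaL, ATPsynCF6L and ATPsyndelta in complex V. ND-49 and ATPsynbeta lie on chromosome 4, where 21.2% of all genes had a row. In complex II all genes had a row, and SdhAL was the lowest, at 6.25. Of the 12, 7 had no row in any of the 8 lists.

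The summits lay close to the starts. Taking the strongest peak of each of the 22 genes, the median distance of the summit from the nearest start was -25.5 bp (quartiles -60.5 and 3.5), negative being upstream, and the median over all 3034 genes with a peak was -38 bp (quartiles -100 and -4). A summit within 100 bp of the start was seen at 17 of the 22 (77.3%), and at 70.5% of all genes with a peak. The farthest were COX5B, at -307 bp, and COX7C, at 302 bp. By annotation, 12 of the 24 distinct member peaks lay in a 5′ UTR (50%), against 31.9% of the 2448 peaks near any coding start. The 12 include the ATPsyngamma summit, in the 5′ UTR of yata, and the COX5B summit, in that of IFT52. Another 10 (41.7%) were intergenic, against 51.5% of those peaks. The last pair were the COX7C summit, in an intron of that gene, and the stronger UQCR-C1 summit, in a coding exon of CycC, the gene of cyclin C.

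**Figure D3:**
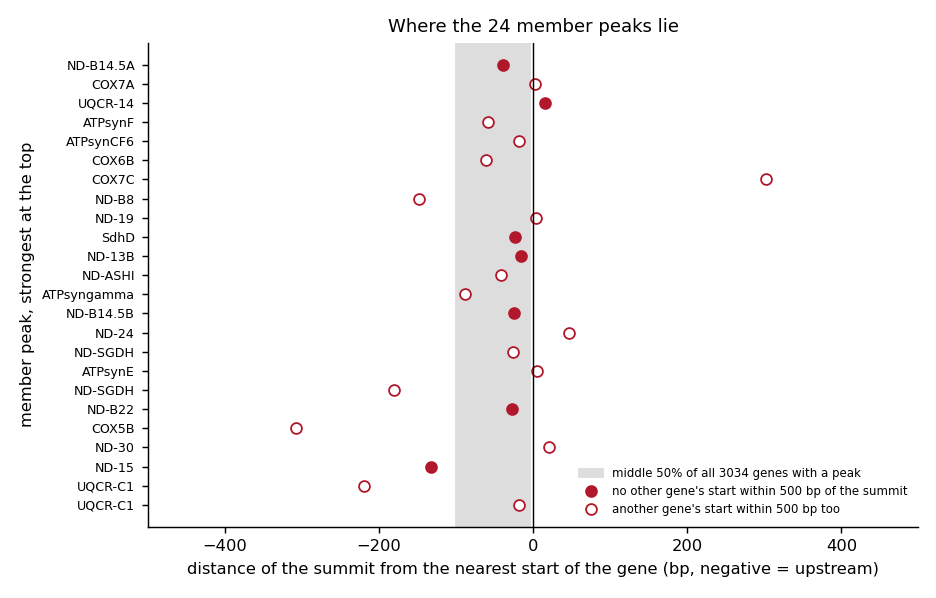
Distance of each of the 24 member summits from the nearest start of the gene, in bp with negative values upstream, strongest peak at the top; open points have another gene's start within 500 bp too, and the grey band holds the middle 50% of all 3034 genes with a peak. Most points lie within 100 bp of the start, and 17 of the 24 are open.

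Many of these peaks lay near the start of more than 1 gene. At 15 of the 22 genes (68.2%) a summit also lay within 500 bp of the start of another protein-coding gene, against 52.3% of all genes with a peak. At 6 of the 22 (27.3%) the strongest summit was nearer to the other gene, against 25% of all genes with a peak. These 6 were COX6B, nearer to Rpp20 and CG33932 (-35 bp each), COX7C, nearer to oys (-36 bp), ND-B8, nearer to Secp43 (-25 bp), ATPsyngamma, nearer to yata (32 bp), COX5B, nearer to IFT52 (9 bp), and UQCR-C1, nearer to CycC. The COX6B summit also lay within 500 bp of CG18809. At the other genes with a shared summit the member was nearer to its strongest summit, and the other start belonged to Arl2 at COX7A (-59 bp), CG3548 at ATPsynF (-67 bp), Sec13 at ATPsynCF6 (-196 bp), CG30161 at ND-19 (-25 bp), corolla at ND-24 (-89 bp), Afti at ATPsynE (-384 bp), RhoGAP68F at ND-SGDH (-369 bp) and CG15812 at ND-30 (-433 bp). The weaker ND-SGDH summit, at -181 bp from that gene, was nearer to RhoGAP68F (-103 bp). At ND-ASHI the other gene was Fum1, a fumarase of the tricarboxylic acid cycle, whose start gave a distance of -221 bp. No shared summit joined 2 members.

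Whether a gene had a neighbouring start moved with the share of peaks. Of the 88 members, 41 (46.6%) had the start of another protein-coding gene within 500 bp of one of their own, against 30.9% of all genes. Among those 41 members, 16 (39.0%) had a peak, against 37.0% of all genes with a neighbouring start. Among the 47 members without one, 6 had a peak (12.8%), against 15% of all genes without one. In both classes the members were near the background of the class. The 6 were ND-B14.5A, UQCR-14, SdhD, ND-13B, ND-B14.5B and ND-B22, and their peaks had no other coding start within 500 bp.

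Words were counted on both strands within 50 bp of the summit, in the 24 member peaks and in the 2448 peaks near any coding start. The DRE, TATCGATA, was in 8 member peaks (33.3%), against 21.2% of all start peaks. CGATA, which every DRE contains, was in 19 (79.2%), against 61.4%. The general E-box CANNTG was in 12 (50%), against 37.7%, and the E-box CAGCTG, a palindrome, in 8 (33.3%), against 10.1%. The widest gap between the shares, among all words searched, was at CAGCTG. It was found at COX7A, ND-19, SdhD, ND-13B, ATPsyngamma, ATPsynE, ND-B22 and the weaker UQCR-C1 summit. The word began 3 to 13 bp from the summit at ATPsynE, UQCR-C1 and SdhD, and 28 to 45 bp from it at the rest. The DRE was found at ND-B14.5A, COX7A, ND-19, ND-ASHI, ND-B14.5B, ND-SGDH, ATPsynE and ND-15, so that COX7A, ND-19 and ATPsynE had both. GGTCACAC, the core of the housekeeping word Motif 1, was in 1 (4.17%), against 5.64%, and TATAAA was in 8.33%, against 7.60%. GAGAG was in 12.5%, against 11.7%, and TTACGTAA or TTACATAA in 4.17%, against 0.49%. GCGCATGC, CCGGAA and TGACGTCA were in 0 member peaks, against 0.368%, 2.9% and 0.0408% of all start peaks. Counts of 0 to 19 peaks stand behind these shares and no test was made. Starts of more than 1 coding gene lay within 500 bp of 70.8% of member peaks, against 33.6% of all start peaks. The part of such shared positions in the word shares was not tested.

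In promoters, taken as 250 bases before to 50 after the most upstream start, the member genes as a whole held the DRE about as often as other genes, in 10.2% of the 88 members and 9.36% of all 13945 genes. The members with a peak held it in 22.7% and the 66 without one in 6.06%. Over all genes with a peak the share was 27.8%. CGATA was in 63.6% of members with a peak and 48.5% of those without, against 75.6% of all genes with a peak. Its share was 52.3% of all members and 47.4% of all genes. GGTCACAC was in 4.55% of members with a peak (1 of 22) and 22.7% of those without. It was in 18.2% of all members, against 7.70% of all genes, and in 11.7% of all genes with a peak, so the split among members was not seen over all genes. CAGCTG was in 40.9% of the promoters of members with a peak, against 21.6% of all genes with a peak, and in 18.2% of members without one. Over all genes its share was 17.7%. These promoters are the same sequence for a gene whether its peak lies at that start or at another.

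The members also differed between the like-named duplicates and their partners. For 17 members a partner with the same symbol less the final L is itself a member. None of these 17 paralogs had a peak, in any of the 4 thresholded lists, while 7 of the 17 partners (41.2%) had a conservative peak, against 21.8% of all genes. Counting every member that ends in L, or in L and a digit, none of 24 had a conservative peak. The highest of the 24 was COX7AL2, at 68.9, whose ranked row passed the IDR threshold. The median strongest ranked signal was 22.1 for the 17 paralogs and 47.1 for their partners, and 2 of the paralogs and 14 of the partners exceeded the all-gene median of 32.1. Within pairs, the partner was higher in 14 of 17 by the combined list, in 14 by replicate 1's list and in 13 by replicate 2's. The pairs were not all the same. By replicate 1's list SdhBL (21.5) was above SdhB (16.9), and ATPsynbeta (71.3) was above ATPsynbetaL (10.7).

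The 4 pairs with the strongest partners show this by replicate. ND-B14.5AL had 9.99 in replicate 1 and 8.39 in replicate 2, against 161.2 and 131.8 at ND-B14.5A. COX7AL had 16.7 and 21.2, against 161.1 and 113.6 at COX7A, although both genes lie on arm 3R, 2626 bp apart. UQCR-14L had no row in replicate 1 and 6.01 in replicate 2, against 150.3 and 130.9 at UQCR-14. ATPsynCF6L had no row in either, against 105.6 and 123.2 at ATPsynCF6. In all 4 pairs both replicates had the partner above the paralog.

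In 2 pairs the paralog was higher. UQCR-11L had a combined signal of 40.5 and ND-49L one of 10.4, and the partners UQCR-11 and ND-49 had no ranked row. At ATPsynbetaL and ATPsynbeta neither had a combined row. The partners ND-49 and ATPsynbeta lie on chromosome 4, where 21.2% of all genes had a ranked row. A neighbouring start was also rarer at the paralogs, at 2 of 17 (11.8%), than at the partners, at 10 of 17 (58.8%). Over all genes, 37.0% of those with a neighbouring start and 15% of those without one had a peak. The part of neighbouring starts in the difference between paralogs and partners was not tested. The promoters held the DRE in 0 of 17 paralogs and 23.5% of partners, against 9.36% of all genes, and CGATA in 41.2% of paralogs and 70.6% of partners, against 47.4% of all genes. Left without the 17 paralogs, 22 of 71 members (31.0%) had a peak, against 21.8% of all genes. The paralogs were left out after they were seen to have no peak, so this share could only rise.

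**Figure D4:**
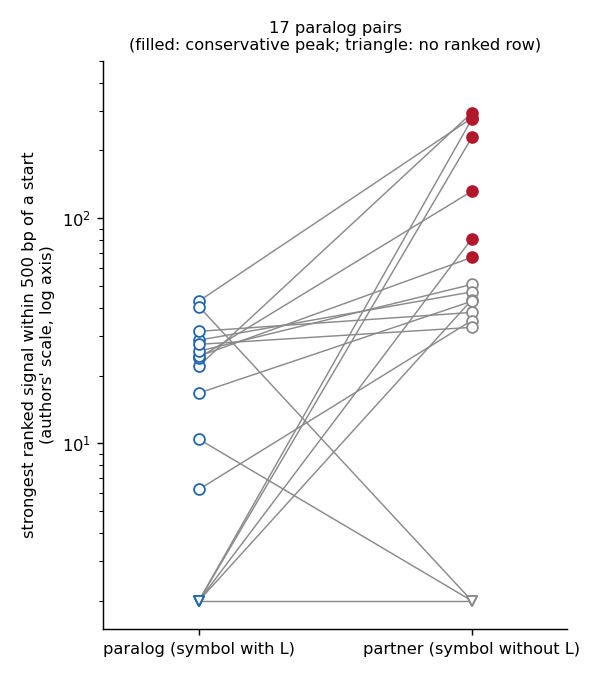
Strongest ranked signal within 500 bp of a start (log axis, authors' scale) for the 17 paralogs with a final L, left, and their partners, right, joined by lines; filled points have a conservative peak and triangles at the bottom have no ranked row. The paralogs lie at or below 42.9 and none is filled, and 7 partners are filled.

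Genes linked to mitochondrial energy supply but with other kinds of symbol were counted in 5 lists. The lists were chosen with earlier results of these data known. Each had peaks in a larger share of cases than the 25% of all 88 members, a share that includes the 24 L forms without a peak. Without those L forms, 22 of 64 members (34.4%) had one, against 21.8% of all genes. The L forms were left out after they were seen to have no peak, so this share could only rise. That 34.4% was above the share of 1 of the 5 lists given next, the regulators, and below the other 4. Of 9 further subunit genes outside the naming rule, 5 had a conservative peak (55.6%). The 4 strongest were levy (230.0 combined; 103.4 in replicate 1 and 127.2 in replicate 2), a cytochrome c oxidase subunit, cype (89.2; 33.8 and 55.3), another subunit of that enzyme, ox (83.0; 44.1 and 30.4), a complex III subunit, and blw (79.4; 40.9 and 37.1), the ATP synthase alpha subunit. Of 19 genes of the tricarboxylic acid cycle and its entry, 10 had a peak (52.6%), led by Scsalpha1 (437.8; 218.3 and 228.8), Mdh2 (191.5; 108.8 and 78.6), Idh3b (170.9; 113.3 and 64.7) and Ogdh (143.5; 73.0 and 75), all enzymes or enzyme subunits of the cycle. Of 26 genes for mitochondrial DNA upkeep, expression and assembly, 12 had one (46.2%), led by Phb1, a prohibitin (265.1), mtSSB, which binds single-stranded mitochondrial DNA (259.2), Coq7, of ubiquinone synthesis (181.8), and bcn92 (169.1).

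Of 22 genes for mitochondrial carriers and import, 9 had a peak (40.9%), led by the import genes Tim8 (263.8) and Tom7 (227.9), the pyruvate carrier gene Mpc1 (111.7) and sesB, an ADP/ATP translocase gene that shares its peak with Ant2 (78.8). Of 15 genes for regulators of nuclear mitochondrial genes, 5 had one (33.3%), led by ewg, the fly counterpart of NRF-1 (296.5), CrebB (270.0), crol (124.7) and crc, the fly counterpart of ATF4 (71.4). Over the 5 lists, 41 of 91 genes (45.1%) had a peak, against 21.8% of all genes, and their median strongest signal was 55.0, against 42.1 for the members and 32.1 for all genes. In replicate 2's list alone 25 of the 91 had a peak, against 13 of the 88 members. With each peak given to the nearest coding start only, 31 of the 91 (34.1%) had one. By that rule 18.2% of members and 16.8% of all genes did. Among the genes named from the lists, the farthest summits lay at Tom7 (-478 bp), Tim8 (-301 bp) and Mdh2 (-273 bp). The peak counted for Fum1 is the one at ND-ASHI. Cytosolic ribosomal protein genes had a peak in 38 of 92 cases (41.3%) and mitochondrial ones in 29 of 73 (39.7%). A neighbouring start was about as common among the 91 genes (45.1%) as among the members (46.6%).

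**Figure D5:**
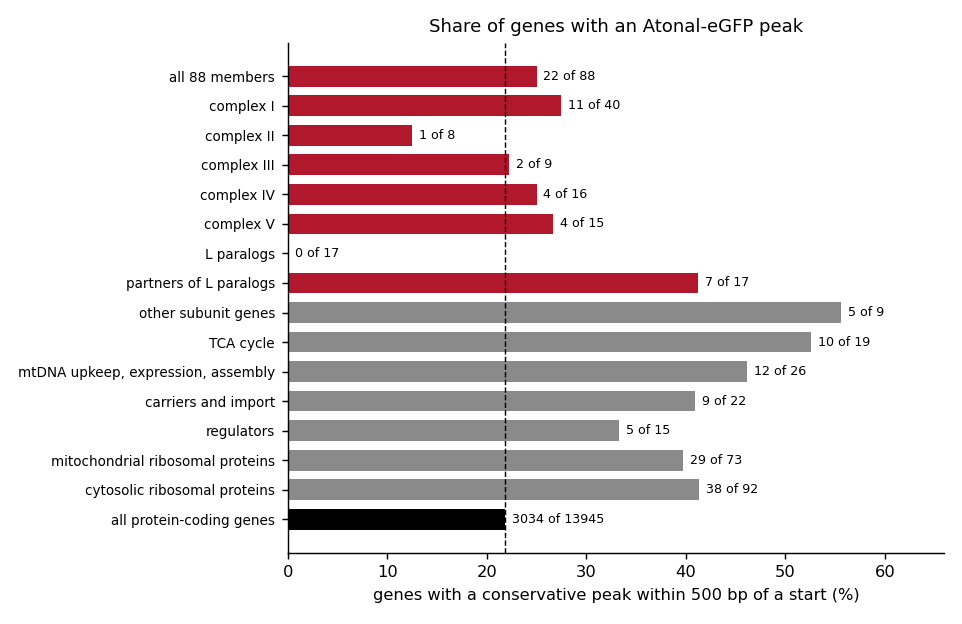
Share of genes, in percent, with a conservative peak within 500 bp of a start, with counts beside the bars; red bars are the 88 members and groups of them, grey bars are other gene lists, and the black bar and dashed line are all protein-coding genes (21.8%). The 5 complexes lie between 12.5% and 27.5%, the 17 paralogs at 0, and the grey bars between 33.3% and 55.6%.

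The member peaks were found on all the large arms. On X, 5 of 13 members had a conservative peak (38.5%), against 24% of all X genes, on 2L 5 of 16 (31.2%), against 20.5%, on 2R 3 of 17 (17.6%), against 23.1%, on 3L 3 of 20 (15%), against 20.4%, and on 3R 6 of 20 (30.0%), against 21.5%. Neither of the members on chromosome 4, ATPsynbeta and ND-49, had one, and 7 of 80 genes there did (8.75%). With 20 members or fewer on an arm, differences of 1 or 2 genes make up much of these gaps.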

How the data were processed

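The 2 samples are biological replicates of 1 group, numbered by the labels. Of the 8 dm6 peak lists deposited by the authors, 4 are ranked by irreproducible discovery rate (IDR) and 4 thresholded by it, per the accompanying text files 1 of each from replicate 1, 1 from replicate 2 and the others from both. The aligner, peak caller, any use of a control and the signal's scale were not given in the sources used here. Peak signal was used as the authors deposited it. The -log10 of the global IDR comes from the deposited ranked lists. In the ranked lists, 8 columns with the signal of the paired inputs do not name them and were not used. Every conservative peak was in the ranked list with an IDR of at most 0.01.

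Summits (start plus offset, counted from 1) were set against all protein-coding starts of Ensembl release 115, and sequence came from the RefSeq dm6 assembly, with Python 3.11.15, numpy 2.4.6, pandas 2.3.3 and matplotlib 3.10.9. The assignment and the word search were tested on simulated data. No p-value was computed, since each list describes 1 group and genes are not replicates. Replicate values are each gene's strongest row in that replicate's own ranked list. The members, the lists and the alternatives were chosen with earlier results of these data known. Of the 96 symbols in the 5 lists, 4 were not found in the annotation and 1 was the same gene as another. Complex I core and accessory subunits were assigned by hand. Genes named were all members with a conservative peak, the genes sharing their summits, the highest and lowest other member of each complex and the 4 strongest of each list. Any other member was named with its values in view.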

Additional observations from a re-analysis of the deposited data

How the results depend on the processing

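Results were recomputed with the pooled list, each replicate's list, the strongest 50% of peaks, distances of 250 and 1000 bp, the most upstream start only, the nearest coding start only, genes with no ranked row left out, and word windows of 25 and 100 bp each side. The last 2, the members without the 17 paralogs and every L form counted as a paralog, were added after the data were seen. With the strongest 50% of peaks, peaks were left at 12 members, 5 of complex I, 1 of complex III, 2 of complex V and 24 of the other mitochondrial genes, and the 12 were 13.6% of members, against 12.9% of all genes. Within 250 bp complex IV had 2, and within 1000 bp complex II had 2 and the paralogs 1, SdhBL. Complex III had 1 in the pooled list. With the nearest coding start only, complex III had 1 and complex IV 1. The median signal of members was 36.2 within 250 bp, 45.1 within 1000 bp, 41 for the most upstream start and 46.8 without genes that had no row, and it stayed above that of all genes in each. The median summit distance was -16 bp for the most upstream start. The DRE share was 29.2% within 25 bp and 37.5% within 100 bp.

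With 1 replicate left out, that is from the other's own lists, the count of members with a peak ranged from 13 to 21, of complex I from 5 to 10, of complex II from 0 to 1, of complex IV from 4 to 4, of complex V from 3 to 5 and of the other mitochondrial genes from 25 to 30, and complex III had 1 in each. The 13 were in replicate 2's list. The median signal ranged from 21.5 to 23.1, the median distance from -27 to -16 bp and the DRE share from 34.8% to 38.5%. The paralogs had 0 in each. Of the 22 genes, 12 were in replicate 2's list and 18 in replicate 1's. The depth behind these lists is unknown, so a gene without a peak cannot be told from one below detection. No paired analysis was possible because there is 1 group and no test. The other counts of genes with a peak stayed within 1.5 times. The shares of words other than the DRE, of shared summits, of neighbouring starts and of arms were not recomputed.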
